A study of Mus musculus with 4 samples.

Results

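The genes described here are those of MHC class I antigen presentation, measured in 4 clonal tumor cell lines from the mammary gland of the mouse. The list holds 10 genes: B2m, H2-K1, H2-T23, Tap1, Tap2, Tapbp, Psmb8, Psmb9, Psmb10 and Nlrc5. A gene was taken from every probe set that the platform's annotation lists with that gene's symbol alone, which gave 26 of 35556 probe sets, 23410 of which have a symbol, and covered 8 of the 10 genes. Nlrc5 had 19 of these probe sets and each of the other 7 genes had 1. H2-K1 and H2-T23 had none, since their probe sets are listed together with other genes. All lines came from 1 spontaneous tumor of a female FVB mouse that carries the rat neu gene behind the mouse mammary tumor virus promoter, so all 4 share this transgene. M1 and M2 are mesenchymal-like clones, sorted as cells low in neu and CD24 and grown in MEGM, which held 2% serum, insulin, hydrocortisone, pituitary extract and epidermal growth factor. E2 and E1 are epithelial clones, sorted as cells high in both and grown in RPMI with 20% serum. Type and medium therefore cannot be told apart, while the 2 clones of a type shared their medium. Each line is a single clone with 1 array and no repeat, and this number limits how precise a value can be.

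Cells show fragments of their own proteins to cytotoxic T cells on MHC class I molecules. The proteasome cuts the proteins, and the inducible subunits Psmb8, Psmb9 and Psmb10 can replace its standard catalytic subunits. The transporter formed by Tap1 and Tap2 carries the peptides into the endoplasmic reticulum, where tapasin (Tapbp) helps to load them onto a heavy chain such as H2-K1 or H2-T23 bound to the light chain beta-2 microglobulin (B2m). Nlrc5 is the transactivator of class I genes. Most of these genes are inducible by interferons.

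The deposited values are normalized log2 levels, with a median of 6.75 in M1 and 6.85 in M2, against 6.75 in E2 and 6.76 in E1. The labelled types could be seen in many of their markers. Cdh1, which encodes E-cadherin, was at 6.70 in M1 and 6.51 in M2, against 12.31 in E2 and 12.15 in E1, and the transcription factor Zeb1 was at 10.99 in M1 and 10.64 in M2, against 6.96 in E2 and 7.49 in E1. Of 10 epithelial markers, 6 were lower in the mesenchymal-like lines by limma at an adjusted p under 0.05, against 2.02% of all probe sets. Of 10 mesenchymal markers 6 were higher, against 1.72%. Among those not called, Krt8 was at 13.44 in M1 and 13.69 in M2, against 13.60 in E2 and 13.27 in E1. Fn1 was at 13.36 in M1 and 13.27 in M2, against 12.74 in E2 and 13.57 in E1. Vim was at 13.72 in M1 and 13.82 in M2, against 13.10 in E2 and 12.79 in E1. Leukocytes carry high levels of class I transcripts, and of 11 leukocyte markers 10 lay below the median of all values, 6.78, in M1 and 10 in M2, against 9 in E2 and 10 in E1. Their median level was 5.92 in M1 and 5.94 in M2, against 5.99 in E2 and 5.92 in E1. Ptprc, the common leukocyte antigen, was at 5.88 in M1 and 5.54 in M2, against 5.59 in E2 and 5.51 in E1. The markers above that median were Lyz2, at 8.91 in M1, Cd3e, at 6.89 in M2 and 6.90 in E2, and Fcer1g, at 9.28 in E2 and 8.12 in E1. RNA came from whole cultures, so a higher level in all cells of a line and in some of them cannot be told apart.

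limma called none of the class I presentation genes between the types, while most of their probe sets had the same order of clones within each type. E2 was above E1 in 26 of 26 member probe sets, against 52.8% of all probe sets with a symbol, and M1 above M2 in 24 of 26, against 49.1%. E2 was the highest of the 4 lines in 25 of 26 probe sets and in 7 of 8 genes, against 24.8% of all. The exception was Tap2. In 21 of 26 probe sets M1 came next after E2, against 6.23% of all probe sets. These counts describe single arrays and carry no test, and the 19 probe sets of Nlrc5 measure 1 gene.

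**Figure D1:**
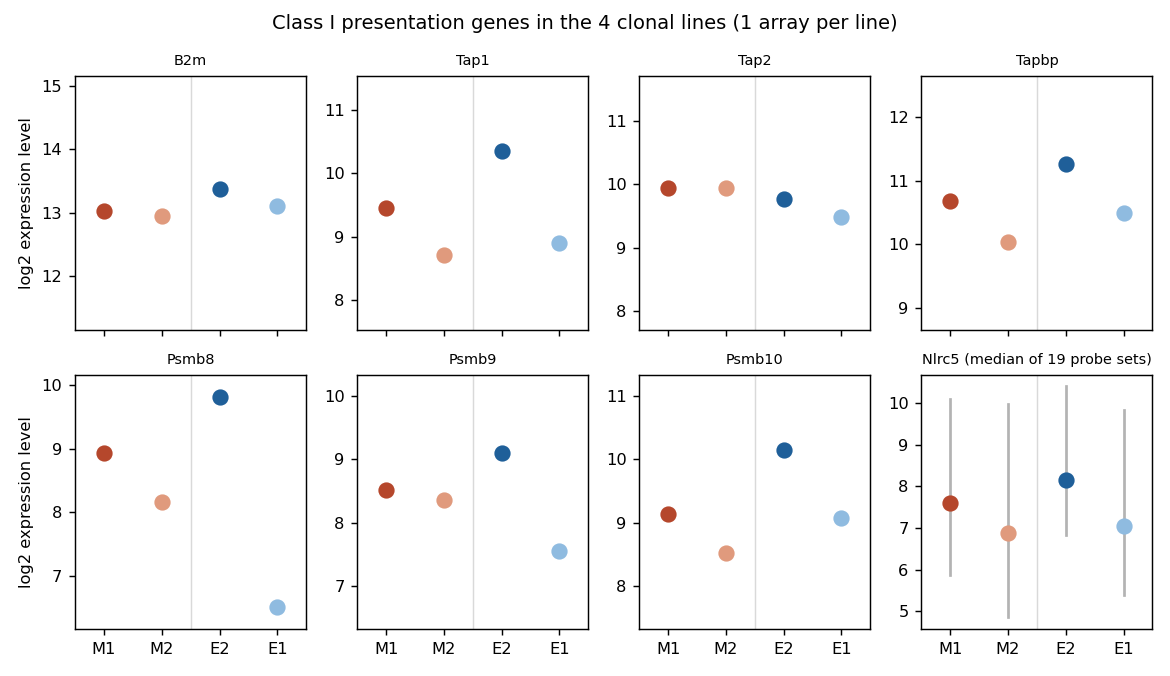
Each point is the log2 level of a gene in a line, with the mesenchymal-like lines M1 and M2 and the epithelial lines E2 and E1 from left to right and 1 array per line; for Nlrc5 the point is the median of 19 probe sets and the bar their range. E2 is highest in 7 of 8 genes and Psmb8 has the widest range, 3.30.

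The promoters of 4 members are shown because each holds its own arrangement of short elements known to bind regulators of class I genes, and because these members span the range from the flattest to the most variable. RefSeq promoters were matched for 8 of the 10 listed genes, all but Tap2 and Nlrc5, and the 250 bases before the gene start were searched on both strands. They come from the C57BL/6J assembly GRCm38.p6, whereas the lines are FVB, a strain with another MHC haplotype. Capitals mark the core of the interferon-stimulated response element GAAANNGAA, the gamma-activated site TTCNNNGAA, and the start of the NF-kB site, GGGACTTTC. They also mark the cores TGACG and ATTGG of the X2 box and the Y box, parts of the promoter module through which Nlrc5 is known to act. Other parts of this module were not searched. Each promoter is written 5′ to 3′ on the strand of its gene, and ends at the base before the start that RefSeq's promoter gives. For H2-K1 the annotated gene reaches beyond that start, from 33996012 to 34000619, so the whole window shown lies inside the annotated gene.
B2m, chr2:122147437-122147686, plus strand: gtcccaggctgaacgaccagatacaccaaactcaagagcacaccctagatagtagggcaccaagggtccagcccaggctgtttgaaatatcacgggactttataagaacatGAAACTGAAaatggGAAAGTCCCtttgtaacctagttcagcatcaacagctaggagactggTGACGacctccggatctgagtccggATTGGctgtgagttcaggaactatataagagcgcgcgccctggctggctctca
H2-K1, chr17:34000348-34000597, minus strand: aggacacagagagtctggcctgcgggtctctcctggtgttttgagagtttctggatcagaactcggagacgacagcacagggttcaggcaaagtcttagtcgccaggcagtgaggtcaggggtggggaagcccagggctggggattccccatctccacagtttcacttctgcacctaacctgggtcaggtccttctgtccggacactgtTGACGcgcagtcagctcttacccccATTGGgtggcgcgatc
Tap1, chr17:34187306-34187555, plus strand: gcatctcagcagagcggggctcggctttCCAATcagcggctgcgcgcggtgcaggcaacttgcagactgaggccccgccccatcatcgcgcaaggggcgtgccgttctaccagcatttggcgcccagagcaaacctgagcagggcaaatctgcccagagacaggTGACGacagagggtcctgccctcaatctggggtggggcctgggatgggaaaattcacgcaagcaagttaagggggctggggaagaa
Psmb8, chr17:34197945-34198194, plus strand: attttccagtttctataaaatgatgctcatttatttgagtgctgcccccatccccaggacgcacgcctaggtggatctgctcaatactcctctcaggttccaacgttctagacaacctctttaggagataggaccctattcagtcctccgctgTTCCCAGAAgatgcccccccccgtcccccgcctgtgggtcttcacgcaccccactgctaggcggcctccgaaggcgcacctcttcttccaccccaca
The B2m promoter held an interferon-stimulated response element, found in 7.13% of 32851 mouse promoter windows, and an NF-kB sequence on the opposite strand, found in 0.289%. It also held both box cores, TGACG being found in 17.8% and ATTGG in 33.8% of windows. In B2m and in H2-K1 the cores TGACG and ATTGG lay 20 bases apart, a spacing that was chosen after these sequences had been read and that occurred in 30 of 32851 windows (0.0913%). The windows with this pair also included those of the class I genes H2-D1 and H2-M3. Tap1 held a TGACG core on its own strand and the other core on the opposite strand, without this spacing. The upstream windows of Tap1 and Psmb9 run in opposite directions and share 225 of their 250 bases, so the Tap1 sequence shows nearly the whole window of both genes. The Psmb8 window held a gamma-activated site, found in 7.02% of windows. No match was found in the windows of Psmb10, and in that of Tapbp ATTGG was the sole motif found. That of H2-T23 held the response element and ATTGG, both on the opposite strand. A match is a run of letters and no evidence of binding in these lines. Only these exact patterns were searched, so other forms of the same sites stay in lower case. A window without a match, such as that of H2-K1 for the NF-kB site and the response element, may therefore still hold such a site.

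Nlrc5, on chromosome 8 from 94434335 to 94527272, had its highest level in E2 in all 19 probe sets. In the probe set with the widest range, its log2 level was 7.73 in M1 and 6.28 in M2, against 9.12 in E2 and 6.54 in E1. E2 was therefore 5.97-fold above E1 and M1 was 2.74-fold above M2, and 1 line of each type was high. Over the 19 probe sets, the fold of E2 over E1 lay between 1.13 and 5.97, with 12 at 2-fold or more. The fold of M1 over M2 lay between 0.905 and 2.81, with 6 at 2-fold or more, and M1 was above M2 in 17. The brightest probe set was among the flattest, at 10.09 in M1 and 9.97 in M2, against 10.40 in E2 and 9.84 in E1. As medians over the 19, the levels were 7.60 in M1 and 6.87 in M2, against 8.15 in E2 and 7.06 in E1. Among the 26 member probe sets, 5 in M1 and 9 in M2, against 0 in E2 and 10 in E1, lay below the median of all values, where background can make a fold smaller than the ratio of transcripts.

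**Figure D2:**
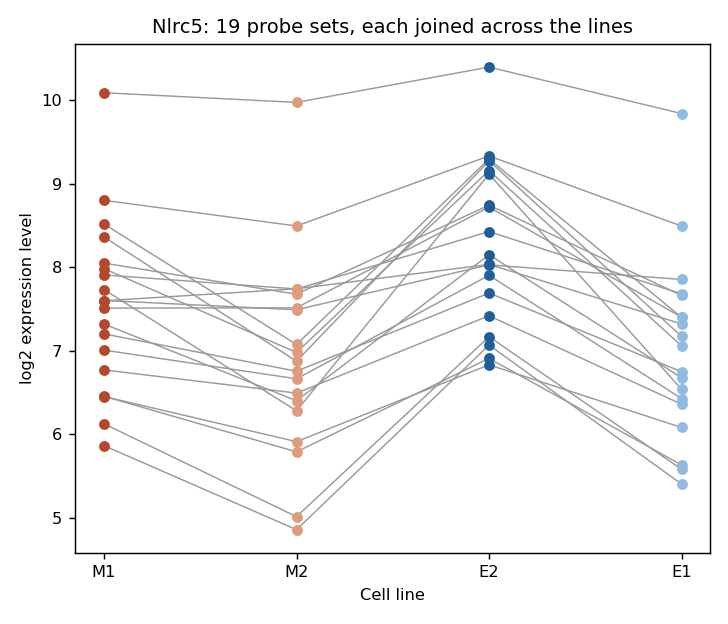
Each grey line joins the log2 levels of 1 of the 19 Nlrc5 probe sets across M1 and M2 (left) and E2 and E1 (right). All 19 peak in E2, and 17 are higher in M1 than in M2.

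The light chain and the probe sets listed for H2-D1 and H2-K1 together were at high levels in all lines. B2m, on chromosome 2 from 122147687 to 122153082, was at 13.03 in M1 and 12.95 in M2, against 13.37 in E2 and 13.11 in E1. This was the flattest gene of the list, with E2 above E1 by 0.26 on the log2 scale. A probe set listed for H2-D1, LOC547349 and H2-K1 was at 12.54 in M1 and 12.35 in M2, against 12.64 in E2 and 11.26 in E1, so that E1 alone was low. A second probe set with the same 3 names was at 11.47 in M1 and 11.28 in M2, against 12.33 in E2 and 11.41 in E1, so that E2 alone was high. Both had E2 above E1, by 1.38 and 0.91, but they differed in where M1 and M2 stood. They cannot be given to a single gene, since the classical heavy chain genes are close copies of each other, and the strain difference between these mice and the reference assembly was not tested. A probe set listed for H2-T23 and a related pseudogene was at 9.06 in M1 and 8.87 in M2, against 8.92 in E2 and 8.29 in E1, with E1 lowest and the other 3 lines close together. Another 2 probe sets list Tapbp together with the ribosomal protein gene Rps3a1, and their levels were flat, at 12.06 in M1 and 11.91 in M2, against 12.17 in E2 and 12.05 in E1 in the brighter one.

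Of the 8 genes, the inducible proteasome subunit Psmb8 had the largest difference between E2 and E1. Psmb8, on chromosome 17 from 34198195 to 34201454, was at 8.93 in M1 and 8.16 in M2, against 9.81 in E2 and 6.51 in E1. E2 was 9.83-fold above E1, which placed Psmb8 at rank 33 of 23410 probe sets for this difference, and both mesenchymal-like lines lay between the epithelial clones. Psmb9, which shares its upstream region with Tap1, was at 8.51 in M1 and 8.36 in M2, against 9.09 in E2 and 7.56 in E1. Its order was the same, with E2 2.89-fold above E1 and M1 and M2 only 0.15 apart on the log2 scale. Psmb10, on chromosome 8 from 105935728 to 105938392, was at 9.14 in M1 and 8.52 in M2, against 10.14 in E2 and 9.08 in E1. E2 was 2.09-fold above E1 and M1 was 1.54-fold above M2, with M1 next to E1. The standard subunits that these 3 replace differed less between the lines. Psmb5, the counterpart of Psmb8, was at 12.87 in M1 and 12.58 in M2, against 13.06 in E2 and 13.20 in E1, a range of 0.62 on the log2 scale against 3.30 for Psmb8. The ranges were 0.59 for Psmb6 and 0.32 for Psmb7, against 1.53 for Psmb9 and 1.62 for Psmb10. In none of the 3 standard subunits was E2 above E1 by 2-fold, against 1.25% of all probe sets. Psmb5 and Psmb6 were lower in E2 than in E1 by 0.14 and 0.32.

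**Figure D3:**
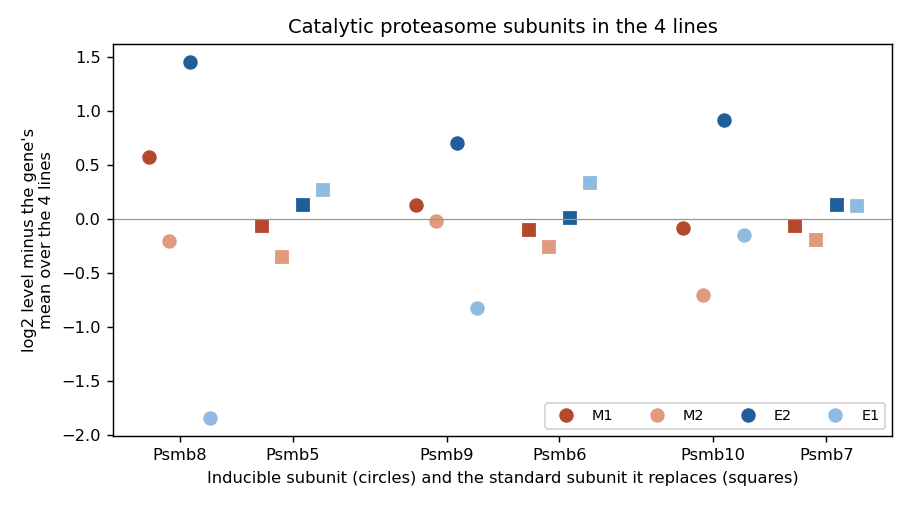
Points give the log2 level of each catalytic subunit minus that gene's own mean over the 4 lines, with M1, M2, E2 and E1 from left to right and 1 array per line. The inducible subunits Psmb8, Psmb9 and Psmb10 (circles) span 1.53 to 3.30 across the lines, and the standard subunits Psmb5, Psmb6 and Psmb7 (squares) span 0.32 to 0.62.

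The transporter subunits differed from each other. Tap1, on chromosome 17 from 34187556 to 34197225, was at 9.46 in M1 and 8.71 in M2, against 10.36 in E2 and 8.91 in E1. E2 was 2.73-fold above E1 and M1 was 1.67-fold above M2. Tap2, its partner in the same transporter, from 34204479 to 34216321 on the same chromosome, was at 9.94 in M1 and 9.94 in M2, against 9.77 in E2 and 9.48 in E1. It was the only member gene in which E2 was not the highest line, and its lines lay within 0.46 of each other. Tapbp was at 10.69 in M1 and 10.04 in M2, against 11.27 in E2 and 10.49 in E1, with E2 1.72-fold above E1 and M1 1.57-fold above M2. Psmb9, Tap1, Psmb8 and Tap2 lie next to each other on chromosome 17, and yet the log2 difference of E2 from E1 was 3.30 in Psmb8 and 0.29 in Tap2.

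To ask whether class I presentation followed the epithelial or mesenchymal-like type, M1 and M2 were compared with E2 and E1. limma called 0 of the 26 member probe sets at an adjusted p under 0.05, against 3.73% of all probe sets (1.72% higher and 2.02% lower in the mesenchymal-like lines), and 1 of 26 had an unadjusted p under 0.05, against 18.0% of all. This was a probe set of Nlrc5, with a log2 difference of -0.40 (standard error 0.13, adjusted p = 0.231 by limma). The adjusted p of the members lay between 0.231 and 0.996. The largest difference between types outside Nlrc5 was in Psmb10, at 8.83 on average in the mesenchymal-like and 9.61 in the epithelial lines, a log2 difference of -0.78 with a standard error of 0.45 (adjusted p = 0.507 by limma). For Psmb8 the difference was 0.38 with a standard error of 1.21, since the epithelial clones lay on both sides of the mesenchymal-like ones. M1 and M2 both lay between E2 and E1 in 12 of 26 probe sets, against 10.1% of all. For genes with such errors, a missed threshold does not show equal levels. The distance between E2 and E1 was larger than the difference between the types in 24 of 26 probe sets and 7 of 8 genes, against 43.8% of all probe sets, with Tap2 the gene in which it was not. The median log2 difference of the 26 probe sets was -0.34, beside 0.00 over all probe sets. This sign rested on E2, since the median was 0.20 without E2 and -0.89 without E1.

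M1 formed no tumor in the mammary fat pad in the study, and it was compared with the 3 other lines for this reason. limma called 0 of 26 member probe sets, against 0.094% of all, and 0 of 26 had an unadjusted p under 0.05, against 7.01% of all. The adjusted p lay between 0.91 and 0.999. M1 stood inside the range of the other lines in every member gene but Tap2, where M1 and M2 were at the same level to 2 decimals. Psmb8 was at 8.93 in M1, against a mean of 8.16 ± 1.65 over E1, E2 and M2 (SD, n = 3), and the widest probe set of Nlrc5 was at 7.73 in M1, against 7.31 ± 1.57 (SD, n = 3). The median log2 difference of the 26 probe sets was 0.11, beside -0.01 over all probe sets, and it was -0.09 without E1, -0.12 without M2 and 0.45 without E2. As M1 has 1 array, this test assumes that M1 varies like the other lines. It shares all 4 arrays with the comparison of the types, so the 2 are not independent. Without M2, both set M1 against E1 and E2 and are the same fit.

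Clones of 1 type were compared directly, a comparison added after the values had been seen. It sets 1 array against another and has no test. At least 2-fold higher levels in E2 than in E1 were found in 16 of 26 member probe sets, against 1.25% of all probe sets, and in 5 of 8 genes, namely Tap1, Psmb8, Psmb9, Psmb10 and Nlrc5. At least 2-fold lower levels were found in 0 of 26, against 0.987% of all. The median log2 difference of the members was 1.18, beside 0.02 over all probe sets. Between the mesenchymal-like clones, 6 of 26 member probe sets were at least 2-fold higher in M1 than in M2, against 3.22% of all, and all 6 belonged to Nlrc5. At least 2-fold lower levels were found in 0 of 26, against 2.64% of all. The median log2 difference was 0.49, beside -0.01 over all probe sets. With 1 value per gene, 0 of 8 genes were 2-fold apart between M1 and M2, and the median was 0.64. The 2 comparisons share no array. In 24 of 26 member probe sets both E2 exceeded E1 and M1 exceeded M2, against 25.5% of all probe sets. Across the 8 genes, which are not independent replicates, the 2 differences had a Pearson's r of 0.57 and a Spearman's rho of 0.71, and across all 23410 probe sets r was 0.04 and rho 0.00.

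**Figure D4:**
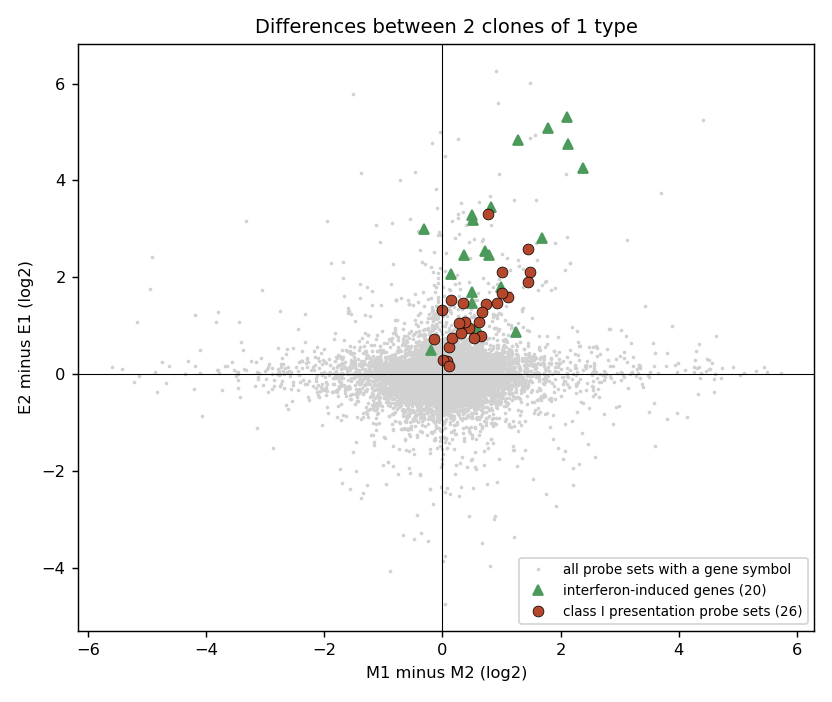
Each point is a probe set, placed by M1 minus M2 (horizontal) and E2 minus E1 (vertical), both as log2 differences; circles are the 26 class I presentation probe sets, triangles 20 interferon-induced genes and grey points all 23410 probe sets with a symbol. The circles lie above zero on the vertical axis in 26 of 26 cases and right of zero in 24.

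Other genes of the pathway, in lists chosen with earlier results of these data known, were set beside the members. Interferon-induced genes had the same order of clones, with larger differences. Of 20 measured genes, E2 was the highest line in 20, against 24.8% of all probe sets with a symbol. E2 was at least 2-fold above E1 in 17 of the 20, against 1.25% of all, and M1 was above M2 in 18, against 49.1%. Their median log2 difference was 2.68 between E2 and E1 and 0.75 between M1 and M2. Irf7, a transcription factor of the interferon response, was at 7.97 in M1 and 6.69 in M2, against 12.33 in E2 and 7.49 in E1. Oasl2, an oligoadenylate synthetase-like protein, was at 8.87 in M1 and 7.08 in M2, against 12.70 in E2 and 7.61 in E1. Both were highest in E2, with M1 above M2. How far these genes and the members depend on each other was not tested. limma called 0 of the 20 between the types at an adjusted p under 0.05, against 3.73% of all probe sets. Genes of the first steps of the response had a smaller median difference. Of 12 probe sets of interferon receptors and signaling genes, 2 were at least 2-fold higher in E2 than in E1, against 1.25% of all. These were Stat2, at 9.81 in E2 and 7.91 in E1, and Irf9, at 11.45 in E2 and 9.76 in E1, both subunits of the factor that binds interferon-stimulated response elements. The median of this list was 0.08 between E2 and E1, and the receptor Ifnar1 was at 10.30 in E2 and 10.44 in E1. Ifnar1, Stat2, Irf1, Rfx5, H2-T10, Mr1 and Cd48 were named after their values were seen. Among 12 probe sets of regulators of class I promoters, 1 was at least 2-fold higher in E2 than in E1, against 1.25% of all. It was that of the interferon regulatory factor Irf1, at 8.80 in M1 and 8.24 in M2, against 9.47 in E2 and 7.94 in E1. A second Irf1 probe set differed by 0.25 between E2 and E1. Rfx5, a partner of Nlrc5 at the X box, was at 8.65 in M1 and 8.37 in M2, against 8.50 in E2 and 8.54 in E1, and so lay close together in all lines.

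Among the genes that act around the members, a smaller share than of the members had a 2-fold difference between E2 and E1. Of 6 helpers of peptide trimming and loading, 0 were 2-fold higher in E2 than in E1, against 1.25% of all probe sets. At such a share a list this small would mostly hold none, so the count does not set the helpers apart. Their median log2 difference was -0.04, and E2 exceeded E1 in 2, against 52.8% of all. Between M1 and M2, 1 helper was 2-fold apart, the tapasin-related Tapbpl, against 3.22% of all probe sets 2-fold higher in M1. Tapbpl had M1 above M2 by 1.35 on the log2 scale and E2 as its highest line, at 9.82. Erap1, which trims peptides in the endoplasmic reticulum, was at 8.54 in M1 and 7.65 in M2, against 10.06 in E2 and 9.92 in E1, and so had higher values in both epithelial lines (log2 difference -1.89, standard error 0.34, adjusted p = 0.085 by limma). The chaperone Calr was at 12.53 in M1 and 12.28 in M2, against 12.07 in E2 and 12.22 in E1. Of 4 proteasome activators and assembly factors, 0 were 2-fold apart between the epithelial clones. Over all probe sets, 1.25% were 2-fold higher and 0.987% 2-fold lower in E2 than in E1, so this list would mostly hold none. In a list of 14 other class I and class I-like heavy chain genes, many lay below the median of all values. This held for 8 in M1 and 7 in M2, against 9 in E2 and 10 in E1. Among the 14, 12 were higher in E2 than in E1, against 52.8% of all probe sets, and 2 by at least 2-fold, against 1.25%. These were H2-Q4, at 9.59 in M1 and 8.91 in M2, against 10.51 in E2 and 7.73 in E1, in the order of Psmb8, and H2-T10, at 10.18 in M1 and 10.50 in M2, against 10.09 in E2 and 8.69 in E1, where E1 was low and the other 3 lines were close. Of 8 class II presentation genes, 0 were 2-fold apart in either pair of clones, which is near the shares over all probe sets. Those were 1.25% higher and 0.987% lower in E2 than in E1, and 3.22% higher and 2.64% lower in M1 than in M2. Of the class II genes, 6 in M1 and 6 in M2, against 5 in E2 and 5 in E1, lay below the median of all values. Background can make a fold smaller there, so even levels are not shown. limma called 2 of the 14 heavy chain genes higher in the mesenchymal-like lines, against 1.72% of all probe sets. H2-M3, which presents formylated peptides, was at 9.52 in M1 and 9.02 in M2, against 6.70 in E2 and 6.30 in E1 (log2 difference 2.77, standard error 0.25, adjusted p = 0.02 by limma). Mr1, which presents metabolites of the vitamin B pathway, was at 11.46 in M1 and 11.64 in M2, against 10.30 in E2 and 10.02 in E1 (log2 difference 1.39, standard error 0.16, adjusted p = 0.0331 by limma). Of 10 listed ligands of receptors on NK cells, which also read class I molecules, 4 had a probe set with their symbol alone. limma called 3 of these 4 higher in the mesenchymal-like lines, against 1.72% of all probe sets. Raet1d, a ligand of the receptor NKG2D, was at 8.90 in M1 and 8.24 in M2, against 4.61 in E2 and 4.84 in E1 (adjusted p = 0.0115 by limma). H60b, another ligand of NKG2D, was at 9.28 in M1 and 10.82 in M2, against 5.68 in E2 and 5.39 in E1 (adjusted p = 0.0431 by limma). The third was Cd48, at 5.72 in M1 and 5.72 in M2, against 4.94 in E2 and 4.81 in E1, all below the median of all values. These 5 genes were higher in the type grown in MEGM, so that type and medium cannot be told apart for them.

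**Figure D5:**
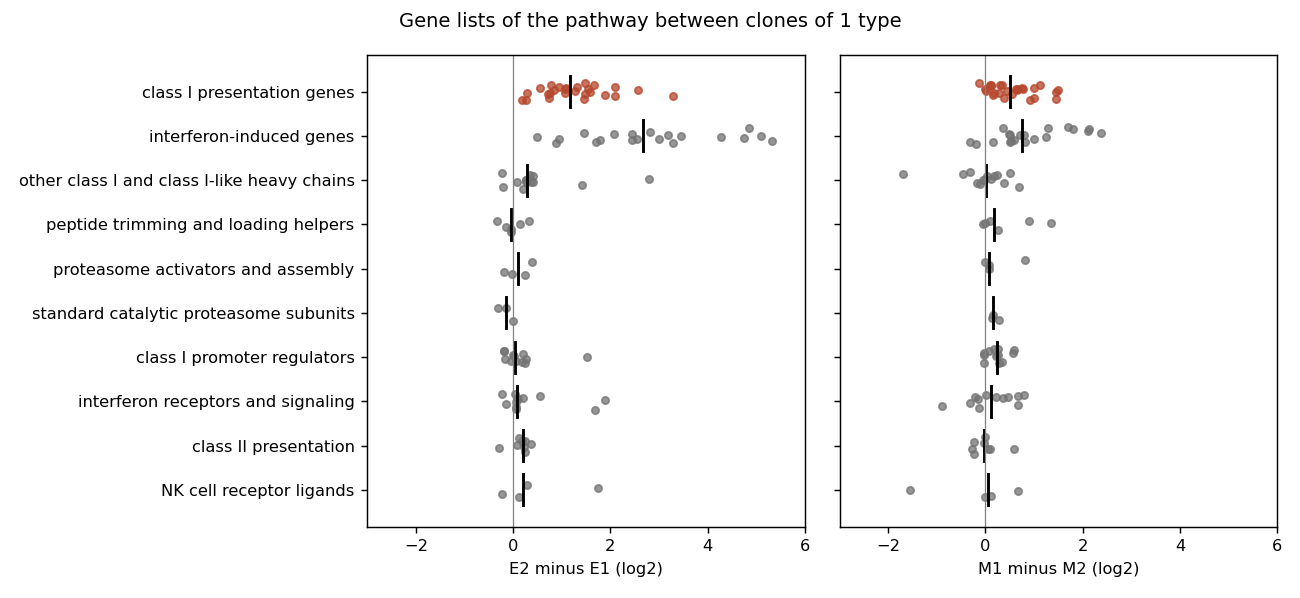
Points are probe sets of 10 gene lists and bars their medians, with the log2 difference of E2 from E1 on the left and of M1 from M2 on the right, 1 array per line. The medians of the class I presentation genes are 1.18 and 0.49 and those of the interferon-induced genes 2.68 and 0.75, while that of the standard catalytic subunits is -0.14 between E2 and E1.

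The 5 genes with a profile closest to that of Psmb8, the member with the widest range, were Lgals9, H2-Q4, Bst2, Ube2l6 and Dnajc22. Closeness was the root mean square distance over the 4 lines after each gene was centred on its own mean, and it lay between 0.21 for Lgals9 and 0.39 for Dnajc22. Lgals9, which encodes the lectin galectin-9, was at 11.91 in M1 and 11.24 in M2, against 12.46 in E2 and 9.72 in E1. Bst2, the membrane protein tetherin, was at 9.60 in M1 and 8.81 in M2, against 10.32 in E2 and 7.87 in E1. Ube2l6, a conjugating enzyme of the ubiquitin-like protein Isg15, was at 8.97 in M1 and 7.40 in M2, against 9.33 in E2 and 6.61 in E1. In all 5 the order of the lines was E2, M1, M2 and E1. With 4 lines, such likeness is a description of these arrays.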

How the data were processed

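RNA of M1, M2, E2 and E1 was hybridized to Affymetrix mouse gene arrays, 1 per line. The deposited values are log2 expression levels normalized by the authors. The labels name Partek for this, and the version, background correction and normalization are not given in the sources used here. Values were used without rescaling. Of 35556 probe sets, 21789 had 1 symbol in the platform's annotation, 1621 several and 12146 none, and the 23410 with a symbol were tested. The symbols of the members matched a later gene table.

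Levels were compared with limma 3.58.1 (lmFit and eBayes) in R 4.3.3, for M1 and M2 against E2 and E1 and for M1 against the 3 other lines, each with 2 residual degrees of freedom. The Benjamini-Hochberg adjustment ran over the 23410 probe sets, and an adjusted p under 0.05 was a call. Nothing in the labels says that a line was grown more than once, so p-values measure the spread between clones. Clones of 1 type were compared by a 2-fold difference, without a test.

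On simulated data with 50 changed probe sets at each size, among 23410, limma recovered 4, 27, 40 and 45 at log2 changes of 1, 2, 4 and 6 for the 2 types, with 3 false calls among 119, and 0, 32, 38 and 44 for M1, with 5 among 119. The simulated lines had the spread seen within a type and, apart from the added changes, no difference between the types. In the real comparison of M1, differences between the types add to the spread of E1, E2 and M2. Recovery can be lower there than in the simulation. Promoters were taken from RefSeq. Members and gene lists were chosen with earlier results of these data known. Genes named are all members, up to 4 per list by their difference between the types, and 5 by likeness. Cdh1, Zeb1, Krt8, Fn1, Vim, Cd3e and Psmb7 were named outside this rule, and others are marked. Alternatives were quantile normalization, centring, leaving out dim probe sets, raising values to the median, single-symbol probe sets, a prior following the level, a block by clone number and leaving out each line.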

Additional observations from a re-analysis of the deposited data

How the results depend on the processing

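No member probe set was called by limma in either comparison under any alternative that was run, and M1 cannot be left out of its own comparison. The 874 calls over all probe sets between the types became 223 with values raised to the median level and 319 with the clone number as a replicate block, and lay between 0 and 1879 when a line was left out (1761 when M1 was left out, 1879 when M2 was, and 0 when E1 or E2 was, where 2579 and 2651 had an unadjusted p under 0.05). The clone numbers only name the lines, and differences of same-numbered lines had a correlation of -0.04 over 23410 probe sets. The 22 calls of M1 became 40 with centred arrays, 62 with a prior following the level, 293 with values raised and 0 among brighter probe sets (966 at an unadjusted p under 0.05), and lay between 0 (E1 or E2 left out, where 873 and 865 had an unadjusted p under 0.05) and 1879 (M2 left out). With M2 left out, the comparison of M1 sets M1 against E1 and E2, and is the same fit as that of the types without M2. Type and medium then differ together with the line. Leaving out a line turned the sign of some members. Between the types, the log2 difference lay between -1.27 and 0.18 for Tap1, -1.27 and 2.03 for Psmb8, -0.65 and 0.88 for Psmb9 and -2.11 and 0.47 for the widest probe set of Nlrc5. For M1 it lay between -0.19 and 0.42 for Tapbp, -0.18 and 0.65 for Tap1, -0.0543 and 1.59 for Psmb8, -0.21 and 0.55 for Psmb9, -0.21 and 0.0039 for B2m, -0.0937 and 1.32 for Nlrc5 and -0.46 and 0.35 for Psmb10. The members' median lay between -0.89 and 0.20 between the types and between -0.12 and 0.45 for M1. In the comparison of clones, chosen after seeing the data, the count for E2 over E1 became 5 of 8 with 1 value per gene. That for M1 over M2 became 3 of 26 with values raised, where the median became 0.20, and 0 of 8 genes. Other alternatives kept the direction. How far dim values stand above background is not given in the sources used here, which limits low levels.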
